A study of Mus musculus with 8 samples.

Results

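The regions described here are stretches of mouse mRNA that carried an m6A peak in the libraries of both control replicates and none after starvation. They were selected on those calls: the peaks of the 4 deposited lists were joined wherever they shared at least 1 bp, which gave 21168 regions, and 879 of them (4.15%) had a call in each control list but no overlap with a starved peak. They lie on 843 of the 9778 genes with a peak (8.62%). The libraries come from wild-type C57BL/6 mouse embryonic fibroblasts (MEFs), isolated at 13.5 days post-coitum and used at passage 5 to 6, which were left in full medium (control) or placed in nutrient-deprived medium for 2 h (starved). Each condition had 2 replicates, and each replicate gave an m6A immunoprecipitation (IP) library and an input library of polyA RNA, 8 samples in all. Peaks were called in each IP library against its own input. The study calls the replicates biological and states that its cell culture experiments were done on different days. Since the regions were chosen by the presence and absence of calls, their calls and fold enrichments are given as a description, with no test.

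N6-methyladenosine (m6A) is written on nascent mRNA by a methyltransferase complex built around METTL3 and METTL14, removed by the demethylases FTO and ALKBH5, and read by YTH-domain proteins and by IGF2BP proteins, among others. It occurs mostly at adenosines preceded by a purine pair and followed by a cytosine, of which GGAC is the most frequent form, and is concentrated in long internal exons and around stop codons. MeRIP-seq sequences antibody-bound RNA fragments, so that a peak marks a stretch of RNA and not a single adenosine. A peak can be called only where enough RNA was present in the IP and the input, and the absence of a call is not the absence of m6A.

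The sequences of the strongest regions show what was called. Of the 20 regions with the highest fold enrichment in both controls, 13 had a central window of 100 nt that lay wholly in 1 coding exon, and 5 of these windows held GGAC, against 41.3% of all control-only regions and 40.5% of all regions for a window of this length. These 5 are printed on the transcript strand with the mm10 (GRCm38) coordinates and with GGAC in capitals.
Kdm7a, chr6:39144404-39144503, minus strand, exon 19 of 20: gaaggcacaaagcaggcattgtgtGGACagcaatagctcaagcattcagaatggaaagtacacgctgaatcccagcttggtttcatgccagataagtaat
Mns1, chr9:72448594-72448693, plus strand, exon 5 of 10: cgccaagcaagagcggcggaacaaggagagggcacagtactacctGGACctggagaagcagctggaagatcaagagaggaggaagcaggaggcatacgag
H2-M3, chr17:37271086-37271185, plus strand, exon 3 of 8: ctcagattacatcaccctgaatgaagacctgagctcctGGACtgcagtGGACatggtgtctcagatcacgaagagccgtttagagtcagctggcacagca
Trmt13, chr3:116582577-116582676, minus strand, exon 11 of 12: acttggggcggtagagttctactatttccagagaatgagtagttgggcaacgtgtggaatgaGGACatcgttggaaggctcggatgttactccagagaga
Usp49, chr17:47672274-47672373, plus strand, exon 3 of 7: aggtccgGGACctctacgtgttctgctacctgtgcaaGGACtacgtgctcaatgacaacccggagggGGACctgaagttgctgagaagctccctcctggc

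For some regions that held a GGAC and to which the results below return, the GGAC nearest to the centre is printed with its neighbouring bases. Each print is 25 nt, again on the transcript strand with GGAC in capitals. No GGAC lay within 100 nt of the centre of the regions on Mios, Wdr59, Prkag2, Cab39l, Ythdf1, Igf2bp1, Hnrnpa2b1 and Cep128. The same held for the coding region of Myc and for 3′ UTR regions of Fto, Rictor and Smcr8. The genes shown here beyond the 20 highest were chosen after their values were seen. Over a spliced window of 200 nt, 64.1% of the placed control-only regions held a GGAC (539 of 841; 95% Wilson interval 60.8% to 67.3%), close to the 62.8% of all regions. In gene lists described below, it was held by 2 of 6 placed regions of the m6A machinery and 2 of 7 of nutrient sensing. For autophagy it was 8 of 10, for the MAP kinase list 7 of 8 and for immediate early genes 6 of 7. A match is only a description of the sequence and does not mark a methylated base.
Arap2, chr5:62765966-62765990, minus strand, 5′ UTR: cagcgcttcgGGACgcgtggagtgc
Pik3r4, chr9:105648730-105648754, plus strand, coding exon 3 of 20: gtatagaaacGGACattttttccct
Cgas, chr9:78443045-78443069, minus strand, coding exon 1 of 5: ccgcgtagaaGGACgacggcgccac
Spry1, chr3:37643237-37643261, plus strand, coding exon 3 of 3: gtggaatacgGGACctgcatgtgcc
Spry2, chr14:105893035-105893059, minus strand, coding exon 2 of 2: atgacgatgaGGACaattgtgctga
Dusp6, chr10:99263792-99263816, plus strand, coding exon 1 of 3: ttctgctgatGGACtgccgaccaca
Myc, chr15:61989829-61989853, plus strand, exon 3 of 3 near the stop codon: cctctgaaaaGGACttattgaggaa
Rptor, chr11:119603833-119603857, plus strand, coding exon 1 of 34: gcctcttatgGGACtcggggaggaa
Rptor, chr11:119899329-119899353, plus strand, 3′ UTR: aggactgacaGGACacggaactgca
Ythdf2, chr4:132186751-132186775, minus strand, 3′ UTR: aaaagacataGGACttaactggaaa
Fto, chr8:91666487-91666511, plus strand, near the stop codon: ctcaaaccttGGACaagggtagtgt

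Each of the 4 lists held between 8974 and 10103 peaks, and the median fold enrichment of a peak was 12.2 and 12.3 in the controls against 14.6 and 14.7 after starvation, so that the starved lists were shorter and had higher medians. Fold enrichment is the authors' ratio of the IP signal to the local background of the matched input. The lists hold no read counts, so the depth behind a peak is unknown. Of 10 fibroblast markers, 7 carried a peak in at least 1 list (among them Col1a2, Fn1 and Pdgfrb) and 3 in every list. Of the markers of other cell types, 2 of 4 epithelial genes (Krt8 and Krt18), 1 of 3 endothelial genes (Kdr) and 1 of 3 blood cell genes (Cd68) had a peak, none of them in all 4 lists. The only call on Krt18 was itself a control-only region, with fold enrichments of 10.9 and 24.2, and what other cells in the cultures add to the regions was not tested.

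Of the regions called in exactly 2 libraries, the control-only ones were the most numerous. The pair of starved libraries gave 677. The 4 pairs of 1 control and 1 starved library gave 825, 682, 755 and 619 regions. Regions called in all 4 libraries numbered 2257. The 2 lists with the most peaks were the control lists, and the pair with the fewest regions contained the shortest list. Fewer cells expressing a transcript, less RNA per cell and less m6A per transcript cannot be told apart in these lists, which hold no RNA level, and the part of RNA abundance in any lost call was not tested.

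The control-only regions had lower fold enrichments and shorter control peaks than the regions called everywhere. Their fold enrichment ranged from 2.07 to 373 in control replicate 1 with a median of 10.3, and from 2.01 to 296 in control replicate 2 with a median of 11.5. The regions called in all 4 libraries had medians of 18.3 and 16.6 in the same lists. Taken as the mean over the libraries that called a region, the median was 11.8. It was 14.1 for the starved-only regions, 20.7 for the regions called in all 4 and 12.3 to 13.9 for the mixed pairs. Those other means include starved peaks, whose lists had higher medians, so they are not on the same scale as the 11.8. The median width was 401 bp, with a range of 200 to 3111 bp, against 489 bp for starved-only regions and 883 bp for regions called in all 4. A merged region can only grow with the number of lists that contribute to it, so its width is not comparable between these kinds. Single peaks do not grow in this way, and the median length of the control peaks was 347 and 345 bp in the control-only regions and 564 and 523 bp in the regions called in all 4. Some peaks were exactly as long as their exon, such as both control peaks on Gpatch11 (227 bp) and on Epg5 (202 bp). Outside the last exon, the median length of the exon at the centre was 336 nt for control-only regions and 690 nt for regions called in all 4. The part of exon length in these peak lengths was not tested.

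**Figure D1:**
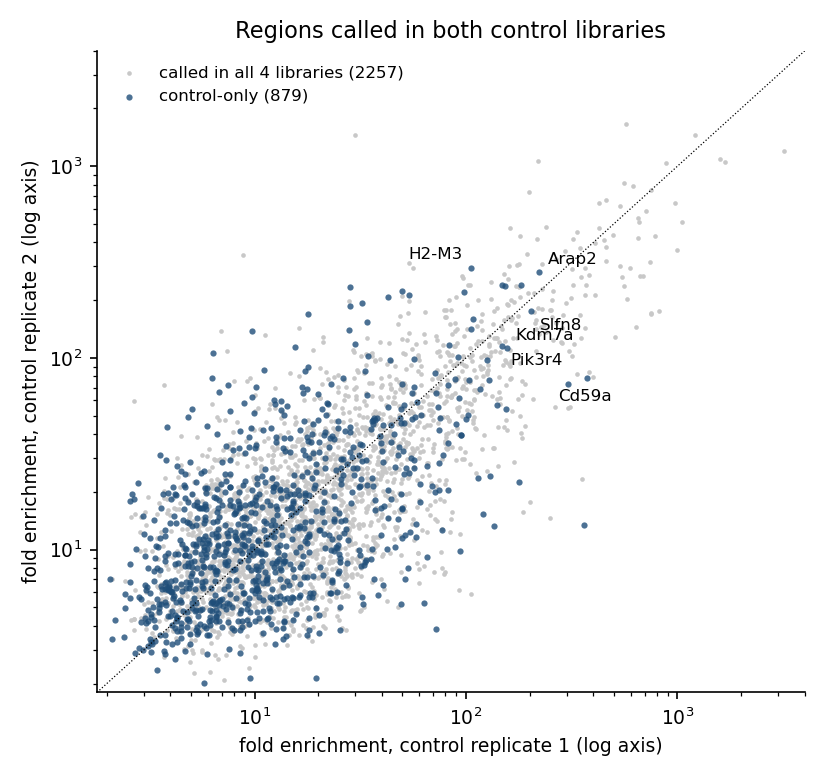
Fold enrichment in control replicate 1 against control replicate 2, both on log axes, for the 879 control-only regions (blue) and the 2257 regions called in all 4 libraries (grey), 1 point per region; the dotted line marks equal values. The blue points lie toward the lower left, and the labelled ones are among the 20 highest by the lower of their control values.

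The 2 control values of a region often differed. The higher exceeded the lower more than 2 times in 357 regions (40.6%), and the median ratio was 1.71. Control replicate 2 had the higher value in 484 of the 879. Both values reached 10 in 320 regions (36.4%) and 50 in 36. Both fell under 4 in 18 regions. The authors' score, which grows with the certainty of a peak and piles up at 3100 among the strongest peaks, was at or above that value in 69 control-only regions in replicate 1 and 71 in replicate 2, and in both replicates in 13. For regions called in all 4 libraries, the corresponding shares were 43.5% and 33.1%. The deposited false discovery rate was under 20% in both controls for 202 regions and at least 50% in one or the other for 228.

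Across the regions that both controls called, the share without a starved call is given by strength, as a description. With the lower control fold enrichment under 5, 240 of 821 regions (29.2%) had no starved call. The share was 21.5% from 5 to 10, 15.9% from 10 to 20, 16.1% from 20 to 50, and 8.65% (36 of 416) from 50 upwards. By length, it was 25.6% for regions whose stretch covered by the most libraries was under 300 bp against 3.65% (5 of 137) for those with 1000 bp or more. Exon length, which some peaks match exactly, was not taken into account here. Read from the starved side, the regions called in both starved libraries lacked a control call in 27.0% of cases under 5 and in 7.04% from 50 upwards.

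**Figure D2:**
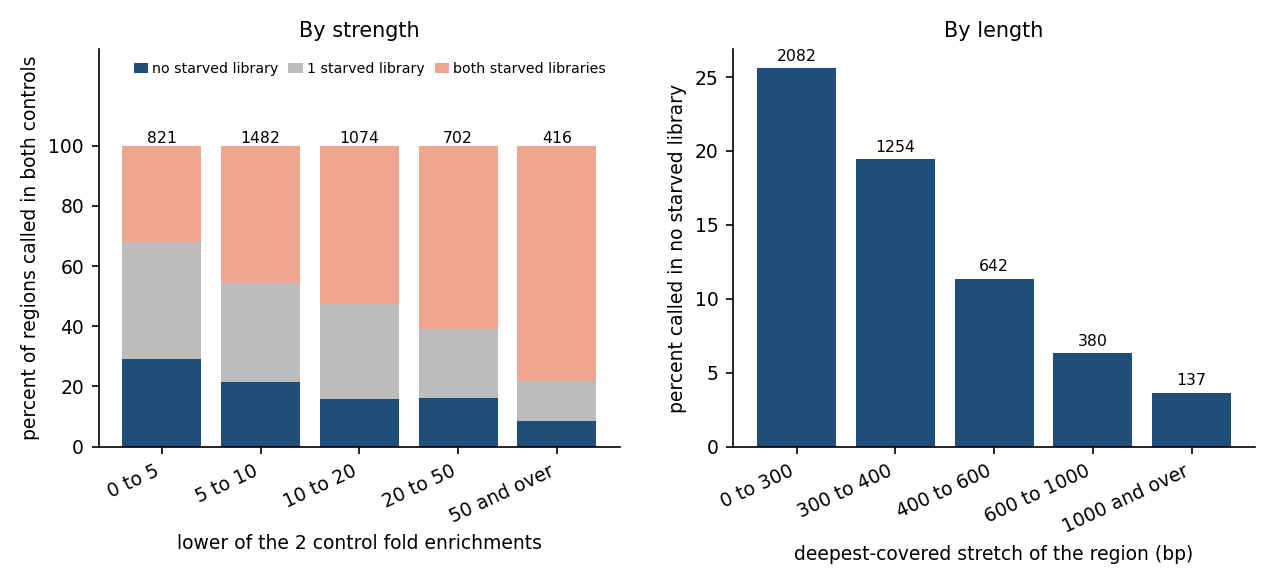
Left, regions called in both controls, split by the lower of their control fold enrichments and by the number of starved libraries that also called them (percent, stacked). Right, the percent with no starved call by the length of the stretch covered by the most libraries, in bp; the number above each bar is the number of regions, and the bars fall from 25.6% to 3.65%.

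Distances to starved peaks were taken along the genome, introns included, and to peaks of any gene. The nearest starved peak lay 5942 bp away at the median. It lay within 100 bp in 27 regions (3.07%), within 500 bp in 133 (15.1%) and within 1000 bp in 210 (23.9%). Starved-only regions gave similar shares, with a control peak within 100 bp in 3.69% and within 500 bp in 15.2%. The regions closest to being excluded were those on Gcnt2, Rnf168 and Atoh8, whose nearest starved peak lay 2, 3 and 4 bp away. Just outside the rule stood regions on Lipt2, Ap1s2 and Cln8, where a peak of starved replicate 2 overlapped by 3, 4 and 5 bp. At the other edge, the control peaks on Wdr41 and on Tigd2 shared 1 bp and those on Gnaq 2 bp.

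Strong and weak control-only regions lay in different parts of the transcript. Of the 841 regions whose centre could be placed on an exon of their gene, 42.3% (356) lay in coding sequence, 37.7% (317) in the 3′ UTR, 15.2% (128; 95% Wilson interval 13% to 17.8%) within 100 nt of a stop codon and 4.76% (40) in the 5′ UTR. The share near the stop codon was 12.9% over all regions, 10.4% for starved-only regions, 13.8% for regions in all 4 and 13% to 18.2% for the mixed pairs. The last exon held 61.6% of the control-only and 60.4% of all regions. Among the weakest control-only regions, with the lower fold enrichment under 5, coding sequence held 27.5% (64 of 233) and the 3′ UTR 51.9%. Among those from 50 upwards, coding sequence held 70.6% (24 of 34) and the 3′ UTR 14.7%. Regions called in all 4 libraries showed the same order, from 43.8% to 68.7% in coding sequence. The coding share of the control-only regions was the lower under a fold enrichment of 5 (27.5% against 43.8%), from 5 to 10 (40.3% against 47.8%) and from 10 to 20 (47.0% against 54.3%). It was close to theirs from 20 to 50 (64.8% against 63.9%) and from 50 upwards (70.6% against 68.7%). Regions are not replicates of a condition, and these differences were not tested. GGAC was held by 56.7% of the control-only regions in the weakest class and by 79.4% (27 of 34) in the strongest. The classes between them had 64.3%, 68.3% and 68.6%. The regions called in all 4 libraries did not show this rise, with 70.3% in the weakest class and 67.1% in the strongest. Starved-only regions and the mixed pairs were not split by strength.

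**Figure D3:**
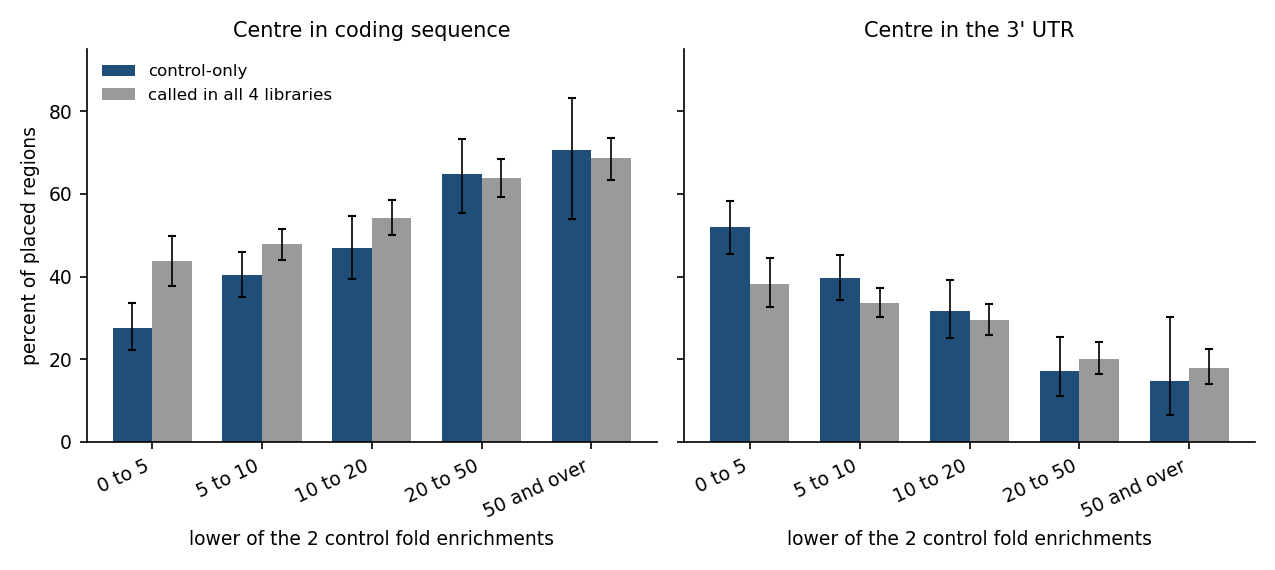
Percent of placed regions with the centre in coding sequence (left) and in the 3′ UTR (right), by the lower of the control fold enrichments, for control-only regions (blue) and regions called in all 4 libraries (grey); bars start at 0 and whiskers are 95% Wilson intervals over regions. The coding share of the control-only regions rises from 27.5% to 70.6% and their 3′ UTR share falls from 51.9% to 14.7%.

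The 20 highest regions were mostly coding. By the lower control value, 15 lay in coding sequence, 4 in the 3′ UTR and 1 in the 5′ UTR, and 14 held GGAC within 200 nt. They lie on 19 genes, of which 10 (52.6%) had no peak in either starved list, against 33.1% of all 843 genes. The highest was at the 5′ UTR of Arap2 (chr5:62765894-62766099), an Arf GTPase-activating protein, with fold enrichments of 222 and 280. Pik3r4 (chr9:105648666-105648928) encodes the regulatory VPS15 subunit of the class III PI3-kinase complex that starts autophagosome formation. Its region, centred in coding exon 3, had 148 and 115. The region was 263 bp long and that exon 134 nt, so part of the region lay outside the exon. Kdm7a, a histone demethylase, had 157 and 113 in coding exon 19. Gpatch11 had 148 and 240, and Ncald, a neuronal calcium sensor, 152 and 237 in its 3′ UTR. In each of these 5 regions the control values differed by less than 2 times. Apobr, an apolipoprotein B receptor gene (106 and 141), Krt20, an epithelial keratin gene (98.0 and 221), Plce1, a phospholipase C gene (91.3 and 102), Trmt13, a tRNA methyltransferase gene (126 and 97.7), and Gm15455 (182 and 239) were also among the 20.

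Several genes of innate immunity stood among these 20. Cgas, the cytosolic DNA sensor that makes cGAMP, had 83.5 and 117 in coding exon 1, and H2-M3, a non-classical MHC class I molecule that presents N-formylated peptides, had 106 and 296 in exon 3. Neither gene had any other call in the 4 lists. Slfn8, a member of the interferon-inducible Schlafen family, had 204 and 176, but its gene kept a region called in all 4 libraries. Cd59a, an inhibitor of the complement attack complex, had 373 and 78.9, a pair that differed by more than 2 times. This grouping was made after the values were seen and was not counted over a list.

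Near-identical copies elsewhere in the genome touch some of these calls. A copy with at least 95% identity over at least 90% of the shared stretch was found for 63 of the 862 control-only regions of at least 50 bp (7.31%), among them 4 of the 20 highest: Arap2 (98.0% identical to a place on chromosome 19), Gm15455 (98.4%, chromosome 4), Slfn8 (98.9%, a neighbouring place on chromosome 11) and Cd59a (97.1%, chromosome 2). Reads from the copies could not be told apart from reads of these genes with the files at hand. Of the other genes named here, Eif4a3l1, Slc25a36, Rb1cc1 and Hnrnpa2b1 had such a copy. The region of Trmt13 also lies on an exon of Lrrc39.

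The calls elsewhere on the same genes are given next. Of the 843 genes, 337 (40.0%) kept a peak elsewhere in both starved lists, 227 (26.9%) in 1 of them and 279 (33.1%) in none. The share with a peak in both lists of the other condition was 42.3% for the genes of starved-only regions. For 198 genes (23.5%) the control-only regions were the only calls in the 4 lists. The corresponding share was 23.6% for the genes of starved-only regions and 21.2% to 22.8% for the mixed pairs, so these shares lay within 3 percentage points of each other. Besides the genes above, the strongest of the 198 were Mns1, a meiosis-specific and ciliary protein with a pair of regions (108 and 160 in exon 5, 304 and 73.0 in exon 8), Ngfr, the low-affinity neurotrophin receptor (128 and 76.4), Eif4a3l1 (71.2 and 83.5), Tmem100 (116 and 68.9) and 2510002D24Rik (71.9 and 65.3). Control-only and starved-only regions stood side by side on 51 genes.

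More than 1 control-only region was found on 34 genes, and 2 of these had 3. Trak1, an adaptor that links mitochondria to kinesin, had fold enrichments of 23.2 and 11.3 at one stop codon, 7.45 and 8.35 in coding sequence and 18.7 and 5.65 in the 3′ UTR. Bahcc1, a chromatin protein with a BAH domain, had 60.4 and 22, 16.2 and 5.69, and 3.89 and 19.8. Both genes kept a peak in 1 starved list.

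The rest of the same genes gave a measure of enrichment that the choice of regions did not fix. Within the 843 genes lay 212 regions called in all 4 libraries, on 172 genes. Their median fold enrichment was 18.4 and 16.6 in the controls and 22.6 and 19.8 after starvation, so that both starved libraries lay above both controls. The difference in median log2 fold enrichment was 0.27 (control 4.13 ± 0.11, starved 4.40 ± 0.13, SD, n = 2), with p = 0.333 in the exact permutation test over libraries (two-sided), which is the smallest p that 2 against 2 can give. The median of the differences per region was 0.15, and with only peaks under a false discovery rate of 20% the difference turned to -0.13 over 37 regions, with an exact p of 0.667. In all other genes, 2045 regions gave a difference of 0.21, with the same exact p. Both starved values were below both controls in 35 of the 212 (16.5%), against a background of 18% over the 2257 regions called in all 4, and above both in 53 (25%), against 22.9%. Both shares are near their background.

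Gene lists were read against 2 backgrounds, the 8.62% of genes and the 4.15% of regions. Where the genes of a list are counted by their starved peaks, the shares over all 843 genes are the background. Of these, 40.0% had a peak in both starved lists, 33.1% in none, and 23.5% had no other call. All 32 lists held at least 1 control-only region, and the share of their genes with one ran from 5.00% to 25.9%. It was above 8.62% in 26 lists. Counted by regions, 21 lists were above 4.15%. Lists with more control-only than starved-only genes numbered 25, against 5 with fewer, and the whole set held 843 against 640 such genes.

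The transcripts of the m6A machinery themselves held 6 control-only regions on 5 of 23 genes (21.7%), which is 8.0% of the 75 regions on the list. They were weak, with a median lower fold enrichment of 5.25 against 7.55 over all control-only regions. None reached 10 in both controls, against 36.4% of all control-only regions. The YTH reader Ythdf2 had 7.19 and 10.6 in its 3′ UTR, 167 nt after the stop codon, and Ythdf1 5.31 and 10.5 at 1011 nt. Igf2bp1, which binds m6A and stabilises its targets, had 7.40 and 5.25 at 113 nt after the stop codon. Hnrnpa2b1, a nuclear RNA-binding protein proposed as a reader, had 5.39 and 4.52 in coding sequence. All 5 genes kept a peak in at least 1 starved list. None of the 6 regions, Fto included, remained when only peaks with a false discovery rate under 20% were used, against 202 of all 879 control-only regions.

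The demethylase Fto carried a pair of control-only regions at the end of its full-length transcript. The first (chr8:91666282-91666701), 10 nt after the stop codon, had 2.99 and 12, and the second, at 1074 nt, had 5.28 and 5.25. At the annotated coding end of a shorter Fto transcript lay a region called in all 4 libraries (chr8:91485159-91485439). It had 178 and 234 in the controls and 24.8 and 18.4 after starvation, so that both starved values were below both controls. A single region is given here with no test.

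Regulators of autophagy held 10 control-only regions on 8 of 71 genes (11.3%; 6.29% of the list's regions, against 3.77% starved-only). Besides Pik3r4, Snap29 had 33.9 and 64.1 in its first exon, and Epg5 had 44.3 and 36.3 in coding sequence. SNAP29 is the SNARE of autophagosome fusion and EPG5 a tether that acts in the same step. Rb1cc1, which encodes the FIP200 scaffold of the ULK1 kinase complex, had 8.48 and 16.4. The conjugation genes Atg7 and Atg12 had 22.9 and 5.96, and 13.9 and 9.43, each in the 3′ UTR. Smcr8, the partner of C9ORF72, had a pair of 3′ UTR regions, with 8.28 and 11.2, and 3.34 and 7.77. Trp53inp2 had 5.82 and 16.9, and 5.37 and 3.93. Atg7 was the only one of the 8 without any other call, while 5 of the 8 kept peaks in both starved lists.

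Among nutrient sensing genes, 6 of 50 (12%) had 8 control-only regions, 8.51% of the list's regions against 4.26% starved-only. Mios and Wdr59, components of the GATOR2 complex that relays amino acids to mTORC1, had 46.1 and 26.9 in coding exon 5 and 17.6 and 38.8 in the 3′ UTR. Rptor, the scaffold that recruits mTORC1 substrates, had 5.83 and 14.8 in coding exon 1 and 14.3 and 5.58 in the 3′ UTR, 62 bp from a starved peak. Rictor, the defining subunit of mTORC2, had 7.68 and 29.4 at a place that no exon of its annotated transcripts covered, and 6.47 and 5.79 in the 3′ UTR. A starved-only region of Rictor, 533 bp upstream of the latter, had 11.1 and 23.7. Prkag2, a regulatory subunit of AMPK, and Cab39l, a scaffold of the kinase LKB1, had 8.40 and 13.5, and 7.48 and 10.8. Prkag2 also had a starved-only region, with far higher values of 274 and 234, at a place that no exon of its annotated transcripts covered. None of the 8 control-only regions remained under a false discovery rate of 20%, against 202 of all 879.

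In insulin and PI3K signalling, 7 of 37 genes (18.9%) had 1 control-only region each, or 6.03% of the list's regions, against 2 genes with a starved-only region. The IGF-binding protein gene Igfbp4 had the highest values, 26.3 and 29.8 in coding exon 1. The PI3-kinase catalytic subunit gene Pik3cb had 21.3 and 12 at the stop codon and no other call. Irs1, an adaptor of the insulin and IGF1 receptors, had 10.9 and 6.73 in the 3′ UTR. Gsk3b had 4.02 and 6.85, the adaptor Grb10 3.14 and 7.99, and Igf2r 3.83 and 3.29. For 4 of the 7 genes, no starved peak was called anywhere, against 33.1% of all 843 genes. With only peaks under a false discovery rate of 20%, 1 of the 7 regions remained, against 202 of all 879.

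Of 23 genes listed for the integrated stress response, 2 had a control-only region and none a starved-only one. The 2 were the tribbles genes Trib1 and Trib2, and their part in that response was not tested. Trib2, a pseudokinase, had 55.5 and 48.0 in coding exon 1, while its stop codon region was called in all 4 libraries with 27.1 and 12.8 in the controls and 16.1 and 70.2 after starvation. Trib1 had 3.84 and 43.5, which lie far apart for replicates. The share of genes, 8.70%, was at the background.

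All 8 genes with a control-only region in the MAP kinase list lacked any starved peak, and 4 of them had no other call at all, Mapkapk3 and Spry1 among them. Over all 843 genes with a control-only region, 33.1% had no starved peak and 23.5% no other call. The 8 genes carried only 1 to 3 regions each, and the part of this in the missing calls was not tested. They are 8 of 70 listed genes (11.4%), and their regions made up 5.97% of the list's, against 4.48% starved-only. Several encode negative feedback regulators of receptor tyrosine kinase signalling. The Sprouty genes Spry1, Spry2 and Spry4 had 22.6 and 11.9, 10.2 and 6.18, and 25.7 and 14.1, in wide regions of 1528, 1178 and 1835 bp. Dusp6, a MAP kinase phosphatase, had 9.37 and 9.85 in coding exon 1, and its other calls, with 7.97 and 6.21, came from control replicate 2 alone. Spred3 had 7.02 and 3.94. Mapkapk3, a kinase downstream of p38, had 18.1 and 30.1. Of these, Dusp6, Spry2 and Spred3 lay beyond the 3 highest that the naming rule set and were named after their values were seen.

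Immediate early genes, whose short-lived transcripts are induced by growth factors, held the highest share of regions, 7 of 55 (12.7%), on 6 of 32 genes (18.8%), with no starved-only region. Myc had a region in coding exon 2 (chr15:61987422-61988278) with 8.41 and 17.2 and another at the stop codon (chr15:61989346-61990302) with 10.4 and 7.86. A further region was called in control replicate 2 alone, and no starved peak was called on the gene. Btg2 (17.6 and 7.16), Zfp36 (6.67 and 20.7) and Egr2 (4.69 and 10.2) also had no starved peak. Mafk (8.10 and 11.7) and Klf6 (6.69 and 10.4) kept peaks in both starved lists. Btg2, Zfp36, Egr2 and Klf6 were named after their values were seen. No region of the list reached 10 in both controls, against 36.4% of all control-only regions. None of the 7 regions remained when only peaks with a false discovery rate under 20% were used, against 202 of all 879.

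**Figure D4:**
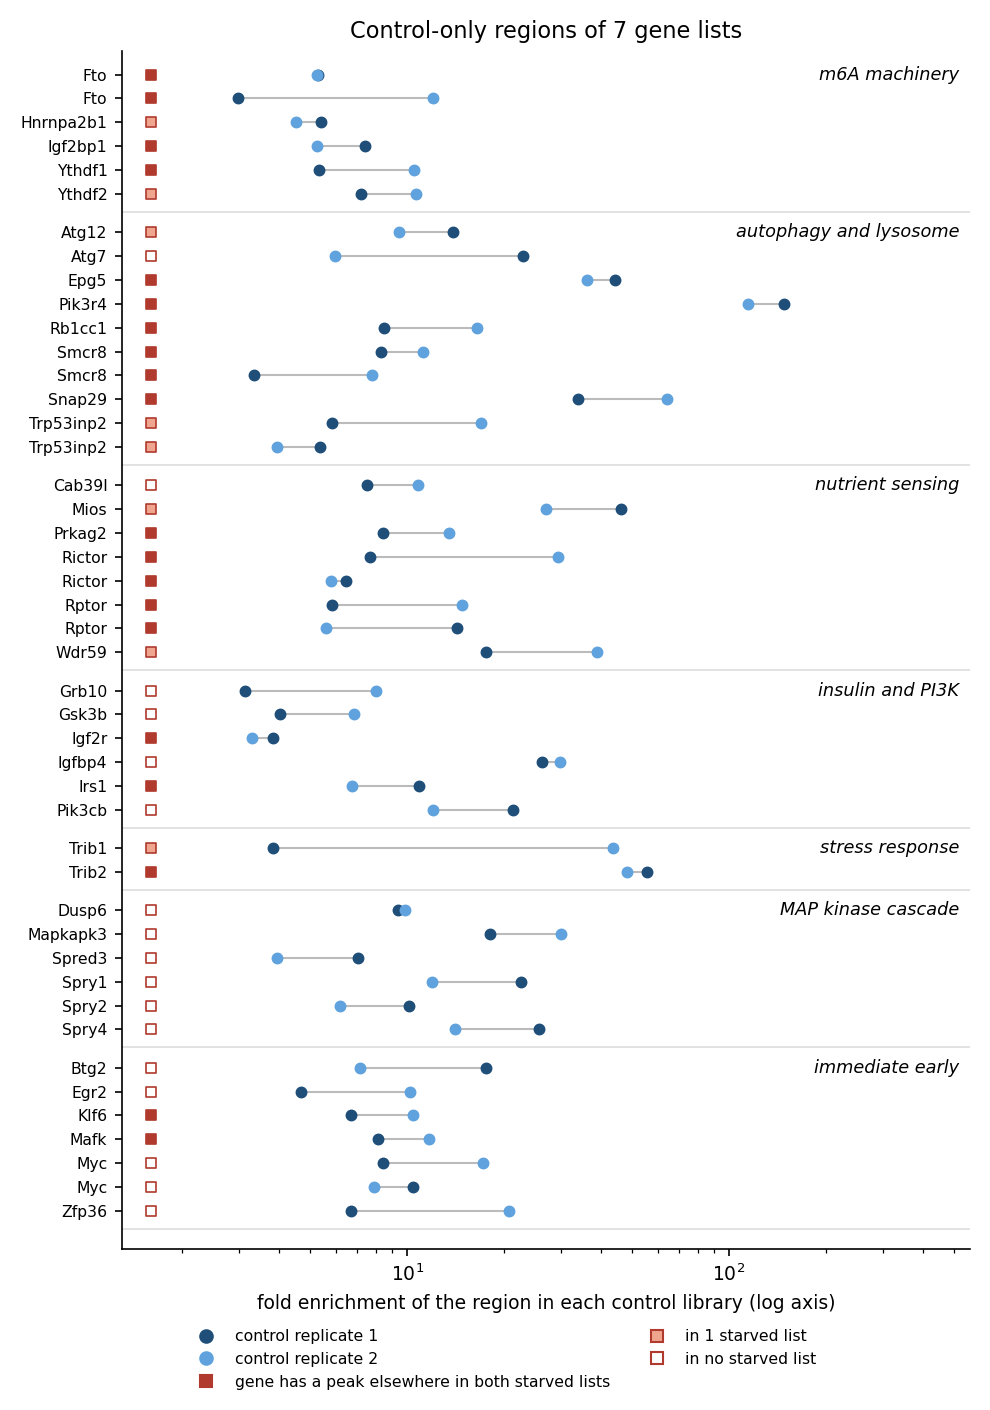
Fold enrichment in control replicate 1 (dark) and control replicate 2 (light) of control-only regions named in the text from 7 gene lists, 1 row per region on a log axis; the square at the left shows in how many starved lists the gene has a peak elsewhere. The 6 genes shown for the MAP kinase block have an open square, and all 5 genes of the m6A machinery a filled or shaded one.

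In the other signalling lists, the shares of regions ran from 4.39% to 6.67%. The Hippo pathway had the highest share of genes, 7 of 27 (25.9%), but 5.60% of its 125 regions. The giant cadherin Fat4 had 75.2 and 48.5 in a coding exon, the kinase Taok3 37.2 and 47.5, and Amotl2, a YAP-binding angiomotin, 8.92 and 10.6. All 3 genes kept a region called in all 4 libraries. In Wnt signalling, 7 of 48 genes had a control-only region (5.84% of regions) and 10 a starved-only one. They included the ligand Wnt10a (21.2 and 17.8), the secreted antagonist Sfrp1 (13.9 and 38.2) and the kinase Csnk1a1 (10.5 and 19.6). In TGF-beta and BMP signalling (5 of 44 genes, 4.51% of regions), the stress-induced ligand Gdf15 had 12.5 and 57.5, Inhbb 23.3 and 6.93 and the co-receptor Tgfbr3 5.87 and 16.3. In the Notch pathway (4 of 24, 6.67% of regions), Numb, an inhibitor of Notch, had 9.74 and 17.5, the ligand Jag1 9.57 and 17.2 and the ubiquitin ligase Mib1 4.13 and 5.58. Growth factors and receptor tyrosine kinases (5 of 42, 4.39% of regions) included Lrig1, which restrains EGF receptors, with 22.3 and 57.6, Hbegf with 20.2 and 12.6 and Pdgfra with 12.4 and 21.2, and all 5 genes kept peaks in both starved lists.

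Mitochondrial and chromatin genes are given side by side, with no test, and differ in how many regions they carry (139 on 113 and 552 on 141 genes). Of the 10 genes of respiration and the mitochondrial ribosome (of 113, 8.85%), 7 had no starved peak and 6 no other call. Over all 843 genes, these shares were 33.1% and 23.5%. The control-only regions of the 10 genes were 7.19% of the list's. They were led by Ndufaf2, an assembly factor of complex I, with 24.9 and 43.0 near the stop codon, Mrpl3 (17.2 and 47.2) and Mrps2 (12.3 and 14.3). Of the 16 chromatin modifiers and remodelers (of 141, 11.3%, but 3.44% of the list's regions), 12 kept peaks in both starved lists, Kdm7a had no starved peak, and each had a call outside its control-only regions in at least 1 of the 4 lists. Besides Kdm7a, the remodeler gene Chd9 had 103 and 76.4 and Arid4a 50.1 and 72.8, all in coding sequence. Chromatin genes were among the 5 lists with more starved-only than control-only genes (25 against 16).

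In the RNA lists, 24 of 195 genes for helicases, splicing and RNA-binding proteins (12.3%, 4.72% of regions) had a control-only region, led by Dgcr8, the partner of Drosha in microRNA processing (20.9 and 16.3), the helicase Dhx36 (120 and 15.3) and the splicing coactivator Srrm1 (13.6 and 33.8). Among ribosomal proteins and translation factors (9 of 71, 7.26% of regions), Eif4a3l1 came first, and the initiation scaffolds Eif4g1 and Eif4g3 had 8.91 and 14.8, and 16.4 and 8.16. Zinc finger genes of the Zfp, Zbtb and related names gave 30 of 328 (9.15%, 3.83% of regions), near the background, with Zfp677 (92.9 and 62.1), Zfp846 (140 and 56.7) and Zfp691 (74.4 and 42.3) highest. The starved peak nearest to the Zfp846 region lay 13 bp away.

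Among ubiquitin genes, 15 of 222 ligases (6.76%, 2.89% of regions) and 6 of 58 deubiquitinases (10.3%, 3.92% of regions) had a control-only region. The highest were Rnf168, which ubiquitinates histones at DNA breaks (44.2 and 44.5), Klhl25 (28.2 and 43.6) and Rnf121 (19.5 and 28.1), and, of the deubiquitinases, Usp49 (82.0 and 72), Usp27x (31.1 and 21.1) and Tnfaip3, the A20 inhibitor of NF-kappa-B (60.7 and 17.6). All 6 deubiquitinase regions reached 10 in both controls, against 36.4% of all control-only regions. Genes of DNA repair and replication (8 of 99, 8.08%, 3.51% of regions) included the helicase genes Wrn (51.2 and 56.9), Fancm (31.6 and 35.7) and Recql4 (30.5 and 26.7).

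Of the fibroblast matrix and integrin genes, 14 of 120 (11.7%, 4.39% of regions) had a control-only region, with Col27a1 (40.4 and 44.6), the protease Mmp15 (17.7 and 68.9) and Itga4 (15.6 and 113) highest, and the list had as many starved-only as control-only regions (14). Cadherins and protocadherins (7 of 56, 12.5%, 4.55% of regions) included, besides Fat4, the giant cadherin Fat3 (154 and 54.3) and Pcdhga11 (51.6 and 11.9), and all 7 genes kept peaks in both starved lists. Axon guidance genes (5 of 54, 9.26%, 3.39% of regions) included the receptor Robo1 (54.9 and 29.97), the ligand Sema3c (21.9 and 50.3) and Epha4 (16.4 and 13.2). Developmental transcription factors gave 10 of 142 (7.04%, 3.20% of regions), with Six4 (56.5 and 70.4), Hoxa5 (29.0 and 20.1) and Foxc1 (20.03 and 47.5).

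The trafficking, cytoskeletal and cell cycle lists lay above the background of genes, but not all of them above that of regions. Rab and Arf genes gave 20 of 198 (10.1%, 4.93% of regions), with Iqsec2 (48.2 and 34.5), Dennd5b (31.1 and 31.3) and Vps26c (28.5 and 17.6). Motor genes gave 7 of 54 (13%, 3.89% of regions), with the kinesins Kif13a (89.9 and 45.3) and Kif14 (82.3 and 36.1) and the myosin Myo1d (11.2 and 9.45). Centrosome and cilium genes gave 10 of 102 (9.80%, 4.53% of regions), with Cep128 (88.6 and 77.4), Cep295 (29.0 and 30.6) and Tmem231 (18.7 and 40.1). Cyclins and their kinases gave 6 of 65 (9.23%, 4.17% of regions), with the inhibitor gene Cdkn3 (17.7 and 11.7), Cdk12 (7.37 and 10.1) and Ccnt1 (4.46 and 5.45).

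The lowest shares were those of the solute carriers (9 of 166, 5.42%), sterol and lipid regulation (4 of 70, 5.71%) and the circadian clock (1 of 20, 5.00%). The solute carriers included the glutamine transporter Slc38a1, with values as far apart as 361 and 13.5, Slc45a4 (71.2 and 20.1) and Slc25a36 (12.2 and 21.3). The fatty acid elongase gene Elovl6 had 45.6 and 39.9, Agpat3 15.7 and 9.72 and Cptp 7.66 and 12.7. Csnk1e, a kinase of the clock proteins, had 3.25 and 2.92.

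On 8 genes chosen after their values were seen, all calls are given along the transcript. Pik3r4 had 6 regions, and each starved library called at least 1 of the other 5. Its coding region at chr9:105650317-105650800 had 53.9 in control replicate 2 and 7.30 in starved replicate 1. On Rb1cc1, the large coding region was called in all 4 libraries, with 37.9 and 28.0 in the controls and 24.3 and 48.0 after starvation, and the control-only region lay downstream of it. On Ythdf1, the coding region was called in control replicate 2 and both starved libraries (5.07, 8.41 and 11.7), while the 3′ UTR region was control-only. On Dusp6 and Myc, no starved library called a region.

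**Figure D5:**
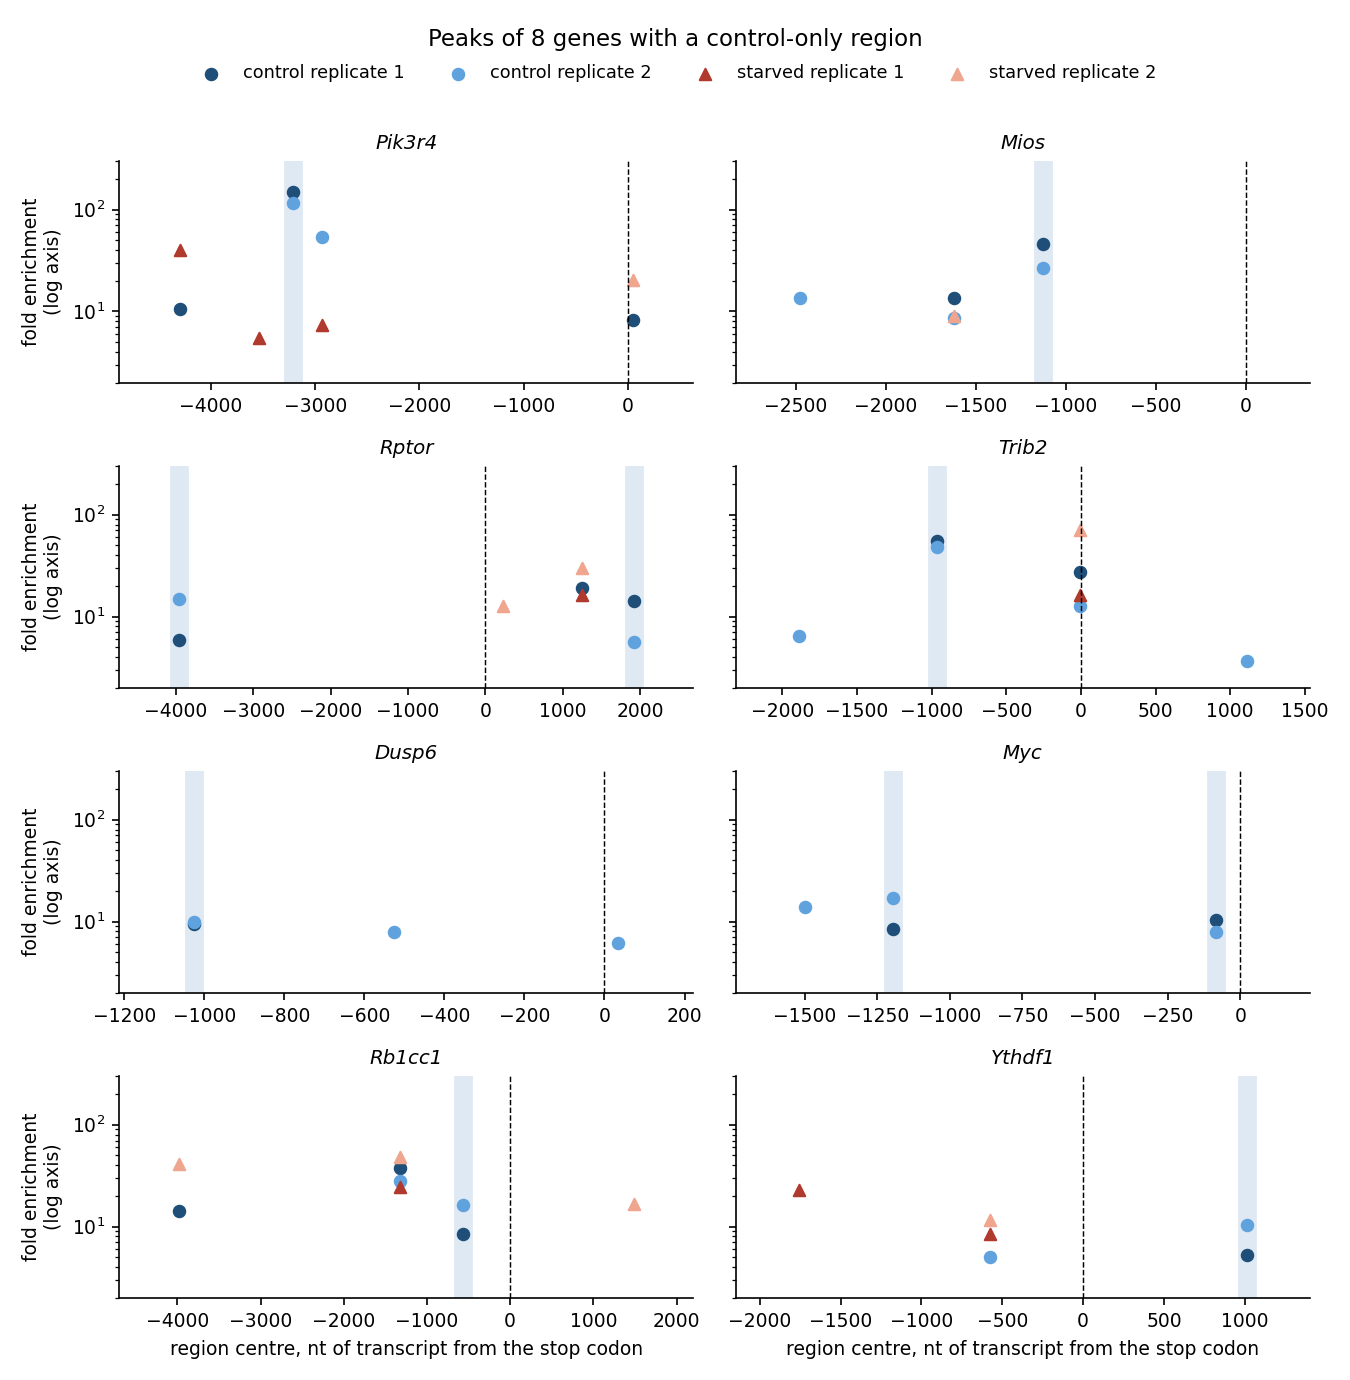
Fold enrichment (log axis) of every called region on 8 genes against the position of its centre in nt of spliced transcript from the stop codon (dashed line); circles are control and triangles starved libraries, and pale bands mark control-only regions. Dusp6 and Myc show circles only, while the other 6 genes show triangles outside the bands; regions that could not be placed on an exon are left out.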

How the data were processed

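m6A was measured by MeRIP-seq in IP and input libraries of control and starved MEFs (2 replicates each). According to the study's methods and the submitters' processing notes, the authors trimmed reads, aligned them to the mouse genome with HISAT2 2.0.4 and called peaks with MACS (MACS2 is named, its version is not used here) in each IP library against its input, so replicates were not pooled. The deposited lists use mm10 coordinates. They give each peak's length, its fold enrichment, which is the authors' ratio of IP to local background, the authors' score, which is −10 times the log10 of the peak p-value, and a false discovery rate that the authors deposited in percent. They hold no counts, so depth and counting error are unknown. A further deposited table holds the authors' own comparison (fold change, p-value, false discovery rate and direction) and was not used. The number of columns of per-sample values left unmapped was 0.

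Peaks of the 4 lists were joined into regions when they shared at least 1 bp, and gene names were taken from the lists and brought to current symbols. A region was placed by the middle of the stretch shared by the control peaks on the transcript named in the list or, failing that, another coding transcript of the gene (RefSeq first, then GENCODE), with 100 nt either side of a stop codon counted as stop codon. GGAC was searched on the transcript strand in 200 nt of spliced sequence. Printed sequences were read from the RefSeq GRCm38 genome. Copies were searched with blastn 2.17.0. Python 3.11.15, pandas 2.3.3, scipy 1.17.1 and pysam 0.24.0 were used, and the joining and counting were tested on simulated peaks. Intervals are 95% Wilson intervals over regions, which are not independent replicates of a condition.

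The members and the gene lists were chosen with earlier results of these data known. Named were, by the lower control fold enrichment, the 20 highest regions, every region of the lists for the m6A machinery, autophagy, nutrient sensing, insulin and PI3K signalling and the integrated stress response, the 3 highest of each other list, genes with at least 3 regions, the 10 highest of genes with no other call, and the regions nearest the overlap threshold. Some members and 1 list that this rule covers are not reported here by name. The single test was an exact two-sided permutation test over libraries. Its p-values measure the spread between these samples, which the study calls biological replicates. The labels do not say whether libraries with the same replicate number were prepared together, and the main test treated them as unpaired. The correlation of deviations between them was -0.0173 over the 2257 regions called in all 4 libraries. With 2 replicates per condition, this value cannot decide whether they were paired. Alternatives covered the overlap rule, peak thresholds, list length, windows, motif and replicates.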

Additional observations from a re-analysis of the deposited data

How the results depend on the processing

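Of 55 recomputed values, 37 stayed within a fixed limit, 17 moved beyond it and 1 reversed. The limit was a fold range for counts, the Wilson interval for shares and the SD of the control medians for fold enrichment and width. The starved minus control difference in the rest of the genes counted as unchanged whenever it kept its sign, whatever its size. The strictest setting, only peaks with a deposited false discovery rate under 20%, gave 374 control-only regions, which hold 202 of the 879, with a median fold enrichment of 23.9 and a median width of 444 bp, and 23.6% of their genes kept a peak in both starved lists. Under it, the starved minus control difference in the rest of the same genes was -0.13 over 37 regions (exact permutation p = 0.667), against 0.27. It lay above 0 in 10 of its 11 alternatives. The median fold enrichment was 12.9 with peaks of at least 4 and 13.9 with lists of equal length. The median width was 393 bp when peaks had to share 50% of the shorter one, 414 bp with gaps joined and 400 bp with lists of equal length. The share near the stop codon was 24.5% for 200 nt and 12.4% for the middle of the merged region, and the share with GGAC was 41.3% in 100 nt and 28.7% for GGACT.

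Leaving out 1 library relaxes the rule by construction, and gave between 1488 regions (without starved replicate 2; 1664 without starved replicate 1) and 4093 (without control replicate 1; 4076 without control replicate 2). The difference in the rest of the genes then ran from 0.16 to 0.3. With the replicate number as a block (replicate block), it was 0.27 with an exact p of 0.5, the smallest that this paired form allows. Under the false discovery rate limit, 0 of 6 regions of the m6A machinery, 0 of 8 of nutrient sensing, 0 of 7 of immediate early genes and 5 of 8 of the MAP kinase list remained among the control-only regions, as did 2 of 10 of autophagy and 1 of 7 of insulin and PI3K signalling. None remained of the 14 of the fibroblast matrix list, the 6 of TGF-beta, the 4 of Notch, the 6 of cyclins and the 1 of the circadian clock. Over all control-only regions, 202 of 879 remained, and with so few regions per list these counts were not tested against that share. Without read counts, a lost call and a call just under the caller's threshold cannot be told apart.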
